A study of Mus musculus with 104 samples.

Results

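D2, a small interfering RNA (siRNA) against mouse Hao1, was transfected at 10 nM into primary mouse hepatocytes (PMH), and the RNA of the cells was sequenced after 24 h. The 4 libraries with this siRNA and dose in their labels were set apart from the other 100 of the series and compared with the 8 libraries of mock-transfected cells. D1, the parent siRNA, and D3 share the sequence of D2, and differ from it at nucleotide 5 of the guide strand (g5), where D1 has no glycol nucleic acid (GNA), D2 carries GNA-C (GNA cytidine) and D3 carries GNA-isoC (GNA isocytidine). All are fully chemically modified siRNAs. Further groups of 4 libraries each were D1 and D3 at 10 nM, and D2 at 0.1, 1 and 50 nM. The levels at 1 nM are shown in the plot of gene levels by siRNA and dose, and no comparison with this group is reported. The question was which genes still change when the seed region of the guide is destabilized. All groups are PMH bought from a supplier and kept in culture, and the labels give no treatment other than the transfection with a lipid reagent. Neither the strain, age or number of the animals nor whether the replicate libraries came from separate cultures or animals is stated in the sources used here, so p-values measure the spread between these libraries.

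An siRNA guide strand is loaded into an Argonaute protein, and pairing along its length directs cleavage of the target mRNA. Pairing of the seed alone, the bases near the guide 5′ end, with 3′ untranslated regions (3′UTRs) can lower other mRNAs in the way a microRNA does. GNA has a shorter backbone unit than RNA, and a GNA nucleotide in the seed weakens its pairing. Hao1 encodes glycolate oxidase, a liver enzyme that turns glycolate into glyoxylate, the precursor of oxalate.

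The target site, read from GRCm39, and the guide that pairs with it over the full length are shown because the matches counted in the results derive from them. The site lies at chr2:134340220-134340242 on the minus strand, in coding sequence of exon 8 of Hao1 (ENSMUSG00000027261, transcript ENSMUST00000028704). Capitals mark the bases opposite guide positions 2 to 8 in the site, and g5 in the guide, which was computed as the reverse complement of the site.
Hao1 site: cagaatgtgaaagtcATCGACAa
Hao1 guide: uuguCgaugacuuucacauucug

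Each library held the summed counts of its 2 sequencing runs, 4807693 to 5047494 gene counts with D2 and 3409963 to 5308584 with mock. Mock libraries 1 and 2 were the shallowest, with 3452580 and 3409963 counts, and values without both are given where leaving them out changed the call of a gene described here. Defining hepatocyte markers were present: the 15 listed genes summed to 23200 to 25600 CPM (counts scaled by library size) with D2 and 19600 to 23400 CPM with mock. The 15 Kupffer cell markers summed to 15.0 to 21 CPM with D2 and 16.8 to 23.4 CPM with mock, and 9 of them, Clec4f and Vsig4 among them, had no count in any of the 12 libraries. The 13 endothelial markers summed to 11.2 to 14.5 and 9.87 to 16.3 CPM (4 at 0 in all libraries), the 14 stellate cell markers to 319 to 380 and 307 to 374 CPM (2 at 0), the 9 cholangiocyte markers to 271 to 315 and 277 to 310 CPM (none at 0) and the 12 lymphocyte and erythroid markers to 2.58 to 3.95 and 0.587 to 4.90 CPM (7 at 0). None of the tested markers of these other cell types passed the test. Mitochondrially encoded genes took 3.31% to 3.51% of counts with D2 and 2.98% to 3.335% with mock. In bulk RNA, fewer cells that express a gene and less of its RNA per cell cannot be told apart.

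Hao1 was silenced. Its level was 1.463, 1.815, 1.598 and 0.601 CPM in the 4 D2 libraries, from 7, 9, 8 and 3 counts, against a lowest, median and highest value of 27.8, 34.2 and 38.8 CPM in mock. All 4 D2 libraries lay far below all 8 mock libraries, and the target thus followed the labels. The log2 fold change was −4.60 (SE 0.19, adjusted p = 7.28e-22, edgeR's quasi-likelihood test with Benjamini-Hochberg adjustment over 11297 genes). Of 12 tested genes of glyoxylate and oxalate metabolism Hao1 was the 1 called, where called means an adjusted p under 0.05. The values were −0.53 for Agxt, which turns glyoxylate into glycine, and −0.17 for Grhpr, which reduces glyoxylate, and neither was called. Without D2 library 4, 2 genes of this list were called.

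Apart from Hao1, the genes that changed with D2 changed little. In all, 255 of 11297 genes tested were called (2.26%), 123 lower (1.09%) and 132 higher (1.17%). The median size of a called log2 fold change was 0.321, and the smallest was 0.162. Beyond 0.5 lay 29 lower and 27 higher genes, and beyond 1 lay 5 genes: Hao1, Pik3r3, Tnc, H4c9 and Cyp2a12, of which all but Hao1 stayed below 10 CPM in each of the 12 libraries. All 4 D2 libraries lay beyond all 8 mock libraries for 71 called lower and 75 called higher genes. Such a separation was seen in 2.28% of all genes tested, 1.08% below and 1.2% above mock. The calls depended on single D2 libraries, since 156, 132 and 106 genes were called without D2 library 1, 2 or 3. Without mock libraries 1 and 2 the number was 318.

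Genes of very different function led the decreases. The 12 largest decreases were taken from called genes with a mean of at least 5 CPM and groups that do not overlap. The lack of overlap in these genes was thus a condition of the choice. Msmo1 (ENSMUSG00000031604, chr8:65170603-65186830), a sterol demethylase of cholesterol synthesis, stood at 279, 299, 274 and 269 CPM with D2 and at 421, 509 and 524 CPM (lowest, median, highest) with mock. The groups did not overlap, and the 4 D2 values lay close together. The log2 fold change was −0.81 (SE 0.06, adjusted p = 4.14e-14). Msmo1 was alone in its pathway: it was the only called gene of 25 in the cholesterol synthesis list, whose other members lay between −0.17 and 0.15 (median of the list 0.006, median of all genes −0.0001).

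Sri, which encodes the calcium-binding protein sorcin, had 70.0, 76.0, 75.1 and 70.7 CPM with D2 against 98.9, 117 and 133 CPM with mock. Again no D2 library reached the lowest mock library (log2 fold change −0.67, SE 0.07, adjusted p = 2.96e-09). Tom1l2, an adaptor of endosomal sorting, fell by 0.57 on the log2 scale (SE 0.08, adjusted p = 1.70e-05), from a median of 68.1 CPM in mock to 38.6 to 50.5 CPM. Trdc, annotated as the constant region of the T cell receptor delta chain, fell by 0.91 (SE 0.13, adjusted p = 0.00326), from a median of 116 CPM in mock to 62.7, 44.8, 60.1 and 66.5 CPM. Of the 12 lymphocyte and erythroid markers, 7 had no count, Cd4, Cd8a and Cd3g among them, while the T cell gene Cd3e had enough to be tested and was not called (log2 fold change 0.47). The Trdc locus overlaps other annotated genes, so the transcript behind these counts is uncertain. Tff1, a secreted trefoil peptide, fell by 0.71 (SE 0.11, adjusted p = 4.41e-05).
Others of the 12 largest decreases were low in level. Pclaf, Cavin2, Esco2, Cgref1, Kif2c and Pbk stayed below 30 CPM in every library and fell by 0.55 to 0.80. Of these, Pclaf, Cavin2 and Pbk lost the call when any of 4, 9 and 6 libraries was left out (highest adjusted p 0.114, 0.191 and 0.14), and Cavin2 also lost it without mock libraries 1 and 2 (0.1).

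**Figure D1:**
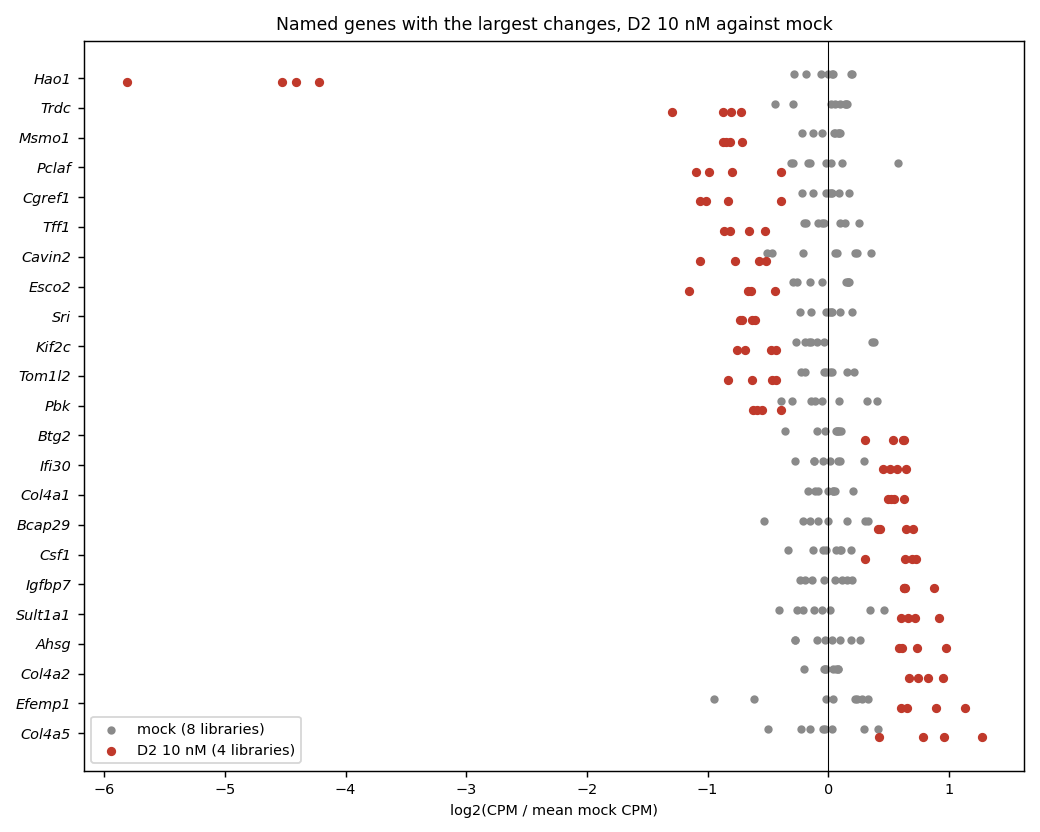
Level of the 12 genes with the largest decrease and 11 of the 12 with the largest increase in each library, as log2 of CPM over the mean CPM of mock (x axis), with 8 mock libraries in grey and 4 D2 10 nM libraries in red. Hao1 lies far to the left of all other genes. In the CPM used to choose these genes the 4 D2 libraries lie beyond the 8 mock libraries, which was a condition of the choice. The plotted CPM are scaled over all libraries of the series, and there Pbk overlaps slightly (11.68 CPM in D2 library 1, 11.66 CPM in mock library 1).

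Genes of the cell cycle were lower as a group of small changes. Of 48 tested genes of the list 9 were called (18.75%, against 2.26% of all genes tested), all of them lower. A negative log2 fold change was seen in 42 (list median −0.251). Top2a, the topoisomerase of chromosome segregation, had 95.3, 80.9, 107 and 112 CPM with D2 and 114, 125 and 158 CPM with mock. The 4 D2 libraries lay below all mock libraries, although the highest came near the lowest mock library (log2 fold change −0.38, SE 0.09, adjusted p = 0.0295, and 0.0889 without mock libraries 1 and 2). Foxm1, a transcription factor of G2 and M phase, stood at 32.2, 29.3, 34.8 and 45.7 CPM against 39.8, 47.7 and 52.0 CPM in mock. D2 library 4 lay among the mock libraries for Foxm1 (log2 fold change −0.39, SE 0.10, adjusted p = 0.0176). Cdc20 (−0.53), Aurka (−0.49), Aurkb (−0.58), Birc5 (−0.52), Tk1 (−0.73), Mcm7 (−0.28) and Ccnd3 (−0.25) were the other 7 called genes. Single libraries decided the number of calls, which was 2, 1 and 2 without D2 library 1, 2 or 3 and 14 without D2 library 4, whereas the list median stayed between −0.207 and −0.299. With mock libraries 1 and 2 left out 11 were called lower, with no filter on low counts 16 and with all libraries of the series in one fit 4.
A set of 25 genes, mainly of the mitotic spindle and kinetochore, was put together after the values were seen. It had 11 called lower and no positive value (median −0.376). The called genes include members with other roles, namely Cip2a (−0.38), Esco2 (−0.69), Chaf1b (−0.52) and Pclaf (−0.80). As the members were chosen with the values known, the count is no separate support. The set holds Kif2c, a microtubule depolymerase (−0.59), and Prc1, a bundler of midzone microtubules (−0.41). Of 5 β-tubulin genes 3 were called lower too.

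Type IV collagen genes were among the 12 largest increases by the rule, which asks for a mean of at least 5 CPM and groups that do not overlap. Col4a2 (ENSMUSG00000031503, chr8:11362471-11499287), the α2 chain of type IV collagen, had 456, 527, 484 and 433.5 CPM with D2 against 236, 275 and 287 CPM with mock. Every D2 library stood well above the highest mock library (log2 fold change 0.81, SE 0.05, adjusted p = 6.46e-15). Col4a1, the α1 chain, which is transcribed from the same chromosomal region in the other direction (chr8:11248423-11362826), had 630, 667, 622 and 610.0 CPM against 384, 437 and 497 CPM. It too did not overlap with mock (log2 fold change 0.55, SE 0.05, adjusted p = 5.10e-10). Col4a5, which encodes the α5 chain, had 22.6, 31.7, 25.6 and 17.6 CPM against 9.27, 12.8 and 17.5 CPM, with its lowest D2 library just above the highest mock library (log2 fold change 0.88, SE 0.14, adjusted p = 0.000183). Together these were all 3 type IV collagen genes that passed the filter on low counts.
In groups put together after the values were seen, Lamb3 was called of 5 laminin genes (0.41, adjusted p = 0.000202), and 5 of 9 other basement membrane genes were called higher, and all 9 had a positive value (median 0.271). Among them, Efemp1 (0.81) and Igfbp7 (0.70) were among the 12 largest increases but lowly expressed, and Hspg2 (perlecan, 0.35) and Agrn (agrin, 0.21) were more abundant. The members of these groups were chosen with the values known, so their counts are no separate support. Of the stellate cell markers, which could also carry matrix genes, 2 of 14 were tested and neither was called.

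Among signalling genes, Csf1, the growth factor of macrophages, rose from a median of 102 CPM in mock to 156, 166, 163 and 124 CPM. The groups did not overlap, as the rule for the 12 largest increases asks (log2 fold change 0.60, SE 0.08, adjusted p = 0.000111). The antiproliferative gene Btg2 rose by 0.53 (adjusted p = 1.04e-05) and was at once the 1 called gene of 27 p53 targets and, with Myc (0.19) and Jun (0.26), 1 of 3 called genes of 26 immediate early genes (1 of 26 without D2 library 3). Ifi30, a lysosomal thiol reductase, rose by 0.55 (adjusted p = 0.000119).

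Called genes of the P450, secreted protein, acute phase and complement lists were mostly higher. The shares called were 15.2%, 11.4%, 10.3% and 7.69% in this order, against 2.26% of all genes tested. Ahsg, which encodes the secreted protein fetuin-A, had 1266, 1626, 1382 and 1245 CPM with D2 and 683, 830 and 997 CPM with mock. The groups lay without overlap, as the rule for the 12 largest increases asks (log2 fold change 0.74, SE 0.11, adjusted p = 0.00641). Fgg, the fibrinogen γ chain, had 279, 306, 310 and 281 CPM against 176, 219 and 226 CPM, again without overlap (log2 fold change 0.47, SE 0.06, adjusted p = 3.40e-07). The hepatocyte marker sum given above moved in the same direction, and its part in these results was not tested.
Of 46 tested genes of cytochrome P450 and drug metabolism 6 were called higher and 1 lower (median 0.148). The 6 were Cyp2c29 (0.35), Cyp2c70 (0.38), Cyp2d10 (0.34), the glucuronosyltransferase Ugt2b36 (0.59), the sulfotransferase Sult1a1 (0.72) and the carboxylesterase Ces3a (0.20), and the glutathione transferase Gsta2 was lower (−0.58). Gsta2 lost its call without D2 library 1, 3 or 4 (highest adjusted p 0.0821), Cyp2d10 without any of 5 libraries (0.128) and Ces3a without any of 4 (0.249). With DESeq2, which shrinks fold changes towards 0, the same numbers were called and the median was 0.023. Cyp2c70, a bile acid hydroxylase of rodents, had 185, 208, 218 and 188 CPM against 133, 156 and 174 CPM. Its D2 libraries all lay above mock (SE 0.06, adjusted p = 0.000118). Many of these enzymes belong to families of similar genes between which reads can be hard to assign.
Of 44 secreted proteins and lipoproteins, 4 were called higher (Ahsg, Apoa2, Apoh and Pon1) and 1 lower (Mttp, which loads lipid onto apolipoprotein B, −0.20), with a median of 0.102. Of 39 acute phase genes 4 were called higher (Fgg, Lcn2, Ccl2 and Vcam1, median 0.143), and of 39 complement and coagulation genes 3 were called higher (Plg and Fgl1 among them, median 0.118). Without D2 library 3, 2 of the secreted, 1 of the acute phase and 1 of the complement genes were called higher. The corresponding numbers were 2 of the secreted and 1 of the acute phase genes without D2 library 2, 2 of the acute phase genes without D2 library 4 or mock library 3, and 5 of the complement genes without mock library 5. Of 31 hepatocyte transcription factors Foxa3 alone was called (−0.30, adjusted p = 0.0499), and its call was lost when any of 10 libraries was left out (highest adjusted p 0.193) and without mock libraries 1 and 2 (0.0794). Without these 2 libraries the calls of Apoh (0.0508) and Mttp (0.0777) were lost as well. Ttr, which encodes transthyretin and is no target of D2, had a log2 fold change of 0.26 (adjusted p = 0.0532), which passed the test without mock libraries 1 and 2 (0.0413) and ranged from 0.00109 to 0.252 with 1 library left out.

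Of the other lists, glycolysis and gluconeogenesis had 14.3% called and the cytoskeletal and YAP or SRF target genes 9.80%. The rest showed few calls or none, where 2.26% of all genes tested were called. Near that share lay the lists of amino acids and urea (2.22%), ribosomal proteins (2.5%), hepatocyte transcription factors (3.23%) and p53 targets (3.7%). The counts of these lists thus say little about them. Of 35 genes of glycolysis and gluconeogenesis, Aldoa (−0.16), Tpi1 (−0.27), Pkm (−0.27) and Pygl (−0.27) were called lower and the glucose transporter Slc2a1 (0.22) higher, with a list median of −0.122. Without D2 library 2 or 3, 2 and 1 genes were called lower. Gapdh, often used for normalization, had a log2 fold change of −0.14 (adjusted p = 0.123), and passed the test without mock libraries 1 and 2 (0.0376) and with DESeq2 (0.0378). All 80 tested ribosomal protein genes had a negative value, although by little (median −0.086), and Rpl5 (−0.21) and Rpl12 (−0.18) were called. This number ranged from 0 (without D2 library 2 or 4) to 4 (without mock library 1 or 2), and was 9 with both of these left out.
The sensors and effectors of the interferon response showed no call upwards. Of 39 tested genes Oas1a, an oligoadenylate synthetase (−0.50, adjusted p = 0.0411), and Trim25, a ubiquitin ligase of RNA sensing (−0.23, adjusted p = 0.00462), were called lower and none higher by edgeR or DESeq2, with 2 higher genes at an unadjusted p under 0.05 (median −0.071). The call of Oas1a was lost without any of 8 libraries, among them each of the 4 D2 libraries (highest adjusted p 0.19) and without mock libraries 1 and 2 (0.0632). Of 21 genes of the RNA interference machinery, which the siRNA itself uses, Pan2, a subunit of a deadenylase, was called higher (0.37, adjusted p = 0.0471) and lost the call without any of 8 libraries (highest adjusted p 0.319). Ago2, the Argonaute that cleaves targets, had a log2 fold change of 0.10 and was not called.
In fatty acid synthesis Elovl6 was the 1 called gene of 22 (−0.27), and in the unfolded protein response Pdia6 (0.22) and Phgdh (−0.40) were called of 35. The amino acid and urea list had 1 called gene of 45 (Shmt1, −0.36), the metal handling list 1 of 17 (the iron exporter Slc40a1, 0.27), and the list of cytoskeletal and YAP or SRF target genes 5 of 51, with Ankrd1 (0.21), Amotl2 (0.26) and Lamb3 higher (1 of them without D2 library 3) and Tubb4b (−0.26) and Tubb6 (−0.42) lower. No gene was called in the lists for bile acids (18 tested), NRF2 (27), the respiratory chain (75), lysosome and autophagy (48) and the circadian clock (16) by edgeR or DESeq2, and 22 of these 184 genes had an unadjusted p under 0.05.

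**Figure D2:**
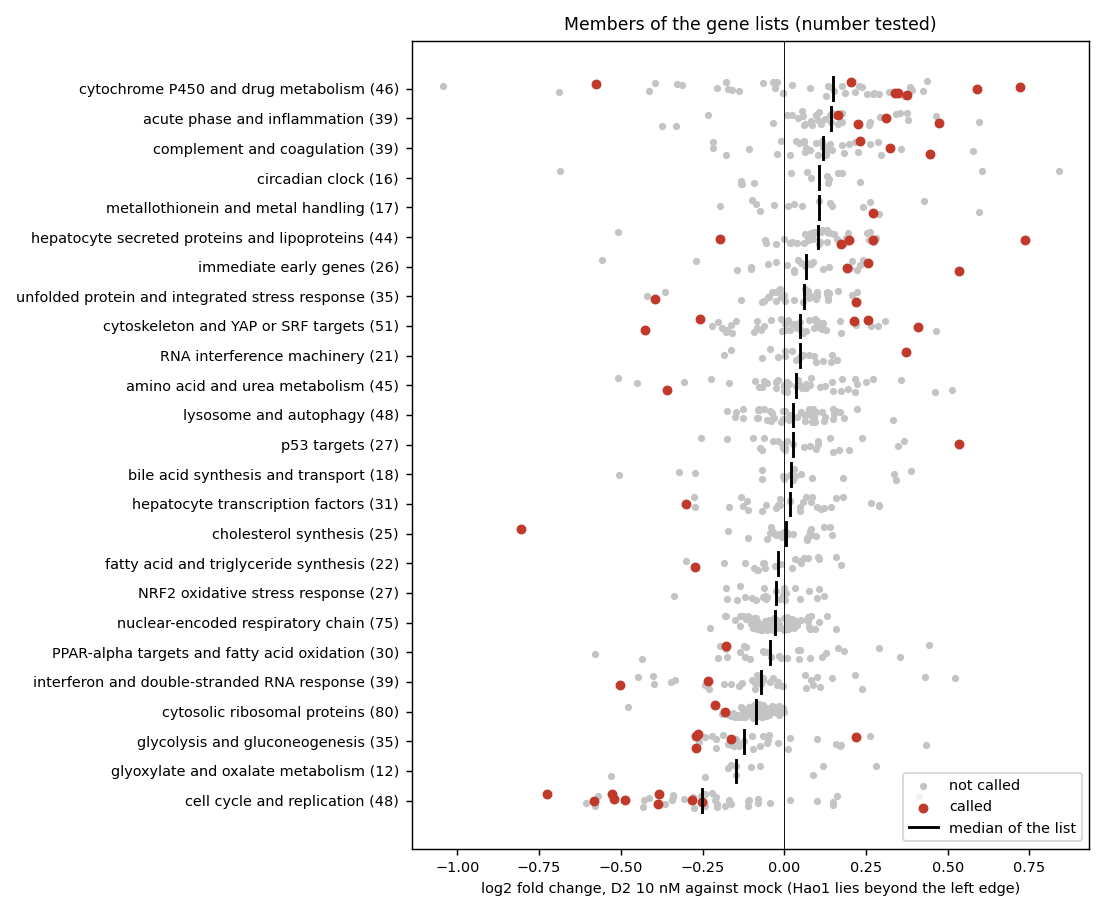
Log2 fold change of D2 10 nM against mock (x axis) of each tested member of the gene lists, with called genes in red, others in grey, and the median of each list as a bar. The cell cycle list has the lowest median (−0.251) and the P450 list the highest (0.148), and called genes lie on the left in the former and mostly on the right in the latter.

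Few of the genes that changed carried a match to the seed of the guide. In the longest annotated 3′UTR of each gene, the letters ATCGACA, complementary to guide positions 2 to 8, were found on the sense strand in 198 of 10679 tested genes other than Hao1 (1.85%), in 5 of 121 called lower (4.13%) and in 1 of 126 called higher (0.79%), the efflux transporter Abcg2. The lower genes were Elovl6, a fatty acid elongase, Rnf115, a ubiquitin ligase, Rad23b, a DNA repair and proteasome factor, and the β-tubulins Tubb5 and Tubb6. In Tubb5 and Tubb6 the match lies in coding sequence of the canonical transcript, which leaves 3 lower genes (2.48%) against 1.34% of those tested. The longer match ATCGACAA, with an A after these letters, was rarer. It stood in 41 of 10679 tested (0.38%), 4 of 121 lower (3.31%) and 0 of 126 higher genes. In canonical 3′UTRs it stood in 29 of those tested (0.27%) and 2 lower genes (1.65%). No test was made on these shares. Sites of 5 of the 6 called genes with ATCGACA are shown beside that of Hao1 given above, that of Tubb6 is not printed, and capitals mark the bases opposite guide positions 2 to 8.
Elovl6: atcacgaaaaataATCGACAa
Rnf115: caggtggaattgtATCGACAa
Rad23b: tggaaactccctcATCGACAt
Abcg2 (higher): agatgtgtgcctaATCGACAg
Tubb5: tgagacctactgcATCGACAa

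Elovl6 had 88.2, 85.1, 92.9 and 90.8 CPM with D2 against 103, 106 and 119 CPM (log2 fold change −0.27, SE 0.06, adjusted p = 0.00513), without overlap. Rad23b was lower by less (−0.19, SE 0.05, adjusted p = 0.0189, and up to 0.127 with a library left out). Rnf115 overlapped with mock in 2 of its 4 D2 libraries, at 101 and 107 CPM against a lowest mock library of 101 CPM, and lost its call without any of 8 libraries (highest adjusted p 0.298) and with mock libraries 1 and 2 left out (0.0832). When guide positions 2 to 18 were set against every transcript position of the reference, Hao1 was the 1 tested gene with no mismatch. None of the 12 tested genes with 1 or 2 mismatches was called. As 2.26% of all genes tested were called, the lack of a call among so few genes says little about them.

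Matches in which the base opposite g5 is changed were counted too, since g5 carries the modified nucleotide. The tokens C5U, C5G and C5A give the guide base, its position counted from the guide 5′ end, and the base that would pair with the site. ATCAACA (C5U) stood in the longest 3′UTR of 1088 of 10679 tested genes (10.19%), 23 of 121 lower genes (19.01%) and 9 of 126 higher genes (7.14%). In canonical 3′UTRs the shares were 7.91%, 17.36% and 6.35%. The median log2 fold change over all genes with this match was −0.01, against 0.002 without it. ATCCACA (C5G) was found in 14.38% of the genes tested, 14.88% of the lower and 7.94% of the higher genes, and in canonical 3′UTRs in 11.35%, 15.70% and 6.35%. ATCTACA (C5A) was found in 11.62%, 11.57% and 9.52%. In the comparison of D2 at 50 nM with 0.1 nM, C5U matches stood in 14.42% of the genes called lower and 11.70% of those called higher, and in canonical 3′UTRs in 15.38% and 9.57%. Lower and higher genes did not differ much in the median length of the longest 3′UTR, with 1918 and 1751 bases against 1917 over the genes tested. These matches are letters in a window and were chosen among several counted here, and no test was made on them.
Sites of some of the 23 lower genes with C5U are shown, since among C5U, C5G and C5A the share in lower genes stood farthest above that in all genes for C5U.
Nus1, first site: ttcctcataatttATCAACAa
Nus1, second site: ttttcagaaaactATCAACAg
Nipa2, second site: tacgactattcatATCAACAa
Atxn7l3b: gaaaaaaaattaaATCAACAa
Oas1a: ctgacaaagtctgATCAACAa
Nus1 (ENSMUSG00000023068, chr10:52293629-52316279), a subunit of the enzyme that makes dolichol, had 118, 105, 108 and 117 CPM with D2 against 151, 159 and 181 CPM in mock. No D2 library reached the mock range (log2 fold change −0.54, SE 0.06, adjusted p = 1.84e-08). Atxn7l3b, which is related to a subunit of the SAGA complex, had 94.9, 90.8, 100.3 and 93.2 CPM against 115, 135 and 141 CPM, also without overlap (−0.46, SE 0.06, adjusted p = 2.40e-06). Nipa2, a magnesium transporter, fell by 0.47 (SE 0.08, adjusted p = 0.000156). Jup, the junction protein plakoglobin, fell by 0.40 and Map4, a microtubule-associated protein, by 0.31. Sri and Tom1l2, both among the largest decreases, carry C5G in the canonical 3′UTR but not in the longest. In the longest 3′UTR the share of C5G in lower genes (14.88%) was near that in the genes tested (14.38%). A part of these matches in the decreases was not tested.
Sri: ttaagtggcatacATCCACAg
Tom1l2: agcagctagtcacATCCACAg

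**Figure D3:**
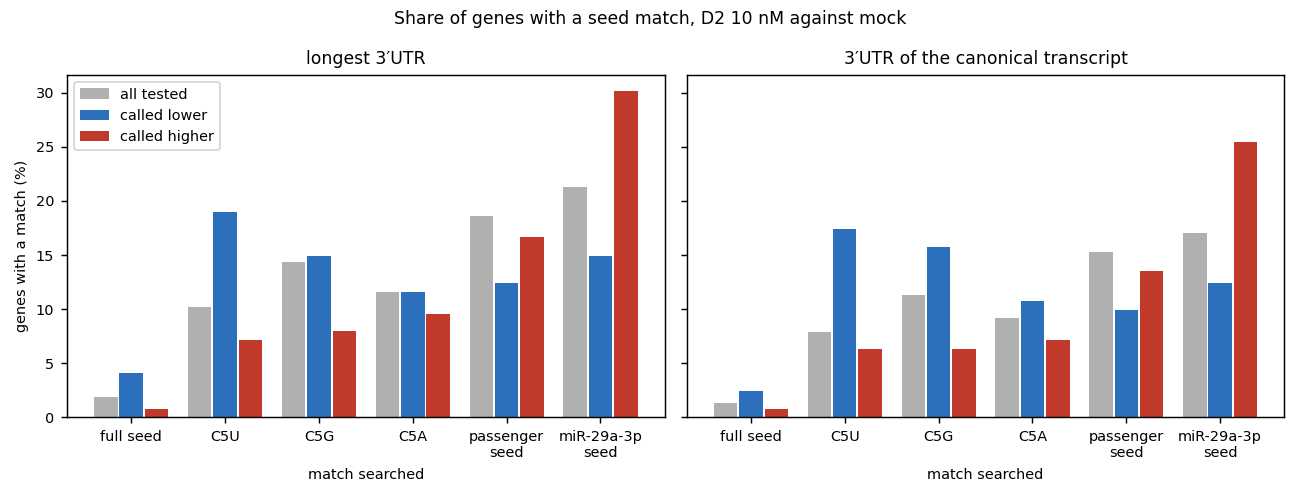
Share of genes (y axis, percent) with each match in the longest 3′UTR (left) or that of the canonical transcript (right), for all genes tested in grey, genes called lower in blue and genes called higher in red. Full seed matches are rare in each set, C5U matches stand in 19.01% of lower against 10.19% of tested genes on the left, and the passenger strand and miR-29a-3p seeds are given for comparison.

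The same genes were then read in libraries that had no part in the comparison with mock. D2 at 50 nM against D2 at 0.1 nM shares no library with it, and called 205 of 11100 genes (1.85%), 107 lower (0.964%) and 98 higher (0.883%). Hao1 was already low at 0.1 nM, with 13.45 to 14.41 CPM against 27.67 to 38.73 CPM in mock, scaled over all libraries of the series. Its log2 fold change at 50 nM against 0.1 nM was −2.97. Of the 123 genes called lower at 10 nM, 122 were tested at 50 nM and 119 of these (97.5%) were lower there too. Of the 132 called higher, 131 (99.2%) were higher. The share with the same direction over all genes tested was not counted, so these shares have no background beside them. Called in both and in the same direction were 56 lower genes, 45.5% of those at 10 nM and 52.3% of those at 50 nM, and 43 higher genes, 32.6% and 43.9%. None was called in opposite directions. The median log2 fold change was −0.34 and −0.304 for the lower genes and 0.294 and 0.268 for the higher genes in the 10 and 50 nM comparisons. Without Hao1, 98 genes were called in both.
Msmo1 had a log2 fold change of −0.78 (adjusted p = 1.82e-06), Sri of −0.62 (1.29e-05), Nus1 of −0.60 (2.50e-06), Trdc of −0.92 (3.86e-07) and Col4a2 of 0.82 (3.96e-09) at 50 nM against 0.1 nM. The median was −0.269 in the cell cycle list (11 of 48 called) and 0.131 in the P450 list (7 of 43 called). The interferon list had a median of −0.071 at 10 nM against mock and of 0.404 here, with 38 of 39 genes positive and 9 called, among them Ifih1, Irf9 and Usp18. These comparisons differ in their reference group as well as in dose, and the parts of the 2 cannot be told apart here. Whether the difference between the comparisons exceeds the spread was not tested in 1 model. D2 at 10 nM against 0.1 nM, which shares the 10 nM libraries, called 133 of 11109 genes (1.2%), 70 lower (0.63%) and 63 higher (0.567%).

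**Figure D4:**
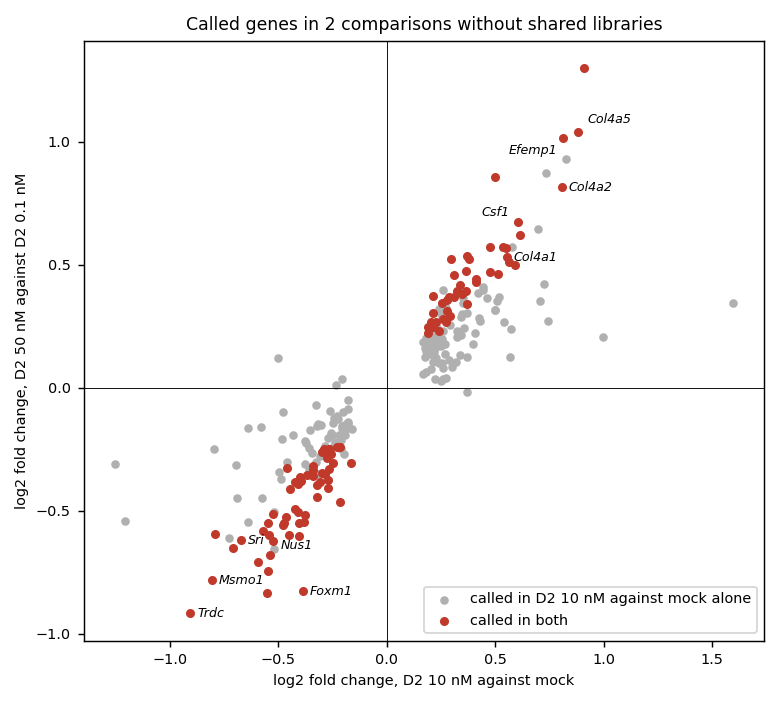
Log2 fold change of the genes called in D2 10 nM against mock (x axis) in that comparison and in D2 50 nM against 0.1 nM (y axis), with genes called in both in red and Hao1 left out as off the scale. Nearly all points lie in the lower left and upper right quadrants, with Msmo1 and Trdc at one end and Col4a2 and Col4a5 at the other.

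At the same dose and time, D1 and D3 were set against D2. D1 differed from D2 in 1184 of 11116 genes (10.7%), 704 lower (6.33%) and 480 higher (4.32%) with D1, and D3 differed from D2 in 450 of 11115 (4.05%), 265 lower (2.38%) and 185 higher (1.66%) with D3. These comparisons share the D2 libraries with the one against mock, so the level in each group is given beside the difference, in CPM scaled over all libraries of the series. Hao1 itself had 9 to 12 counts per library with D1, 3 to 9 with D2 and 2 to 6 with D3, too few for the filter on low counts. With all libraries of the series in 1 fit the D1 minus D2 log2 difference was 0.64 (95% interval −0.10 to 1.38, adjusted p = 0.309) and the D3 minus D2 difference −0.72 (95% interval −1.65 to 0.21, adjusted p = 0.496). A difference in Hao1 between the siRNAs was thus not detectable at this depth.

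Several genes that were low with D2 were not low with the parent siRNA. Msmo1 stood at 405 to 465.9 CPM with D1, near the mock range of 421 to 522 CPM, at 268 to 299 CPM with D2 and at 141 to 187 CPM with D3. The D1 minus D2 log2 difference was 0.66 (SE 0.07, adjusted p = 4.29e-08) and the D3 minus D2 difference −0.80 (SE 0.07, adjusted p = 5.85e-07). Sri followed the same order, with 98.55 to 132.9 CPM with mock, 113 to 132 CPM with D1, 69.9 to 75.85 CPM with D2 and 50.2 to 58.5 CPM with D3 (D1 minus D2 0.73, adjusted p = 1.01e-07, and D3 minus D2 −0.43, adjusted p = 0.00141). Nus1 did so too, with 150.5 to 181 CPM with mock and 141 to 173, 105.0 to 118 and 78.4 to 94.7 CPM with D1, D2 and D3 (0.48, adjusted p = 3.97e-05, and −0.35, adjusted p = 0.0035). Thus D1 left these 3 mRNAs within or close to the mock range and D3 lowered them beyond D2.
Atxn7l3b had 114 to 140.0 CPM with mock, 140.0 to 152 CPM with D1, 90.5 to 99.55 CPM with D2 and 88.2 to 108 CPM with D3, which overlapped with D2 (D1 minus D2 0.64, adjusted p = 1.98e-07, and D3 minus D2 0.06, adjusted p = 0.718). Tmed5, a cargo receptor of the early secretory pathway, had 136 to 191 CPM with mock, 174 to 213 CPM with D1, 96.4 to 131 CPM with D2 and 97.1 to 128 CPM with D3 (D1 minus D2 0.67, adjusted p = 4.79e-06). Dhrs9, a retinol dehydrogenase, had 52.6 to 89.7 CPM with mock, 84.7 to 107 CPM with D1, 45.9 to 55.3 CPM with D2 and 36.6 to 53.8 CPM with D3 (D1 minus D2 0.93, adjusted p = 1.86e-08). Nus1, Atxn7l3b, Tmed5 and Dhrs9 were picked after their values were seen.

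Other genes lowered by D2 were lower still with D1. Top2a had 113 to 157 CPM with mock, 44.5 to 53.6 CPM with D1, 80.7 to 112 CPM with D2 and 68.7 to 103 CPM with D3 (D1 minus D2 −1.05, adjusted p = 1.79e-08). Foxm1 had 39.8 to 51.9 CPM with mock, 15.98 to 20.1 CPM with D1, 29.2 to 45.5 CPM with D2 and 17.2 to 29.7 CPM with D3 (D1 minus D2 −0.96, adjusted p = 1.75e-05). Both cell cycle genes thus lay lower with D1 than with D2, without overlap. Of the genes with a full seed match, Rnf115 had 101 to 127.5 CPM with mock, 35.2 to 46.1 CPM with D1 and 69.8 to 84.0 CPM with D3, both below its D2 range of 86.7 to 106.5 CPM (D1 minus D2 −1.31, adjusted p = 1.56e-10, and D3 minus D2 −0.36, adjusted p = 0.00696). Elovl6 had 103 to 119 CPM with mock, 53.4 to 58.6 CPM with D1 and 37.3 to 48.0 CPM with D3, below its D2 range of 84.9 to 92.2 CPM (−0.69, adjusted p = 4.98e-07, and −1.11, adjusted p = 2.20e-09).
The type IV collagens were high with all 3 siRNAs. Col4a2 had 236 to 287 CPM with mock, 489.5 to 535 CPM with D1, 431.5 to 525.6 CPM with D2 and 613 to 722 CPM with D3, and D3 differed from D2 (0.49, adjusted p = 1.50e-05), whereas the D1 minus D2 difference of 0.12 (SE 0.07) had an adjusted p of 0.285. Col4a1 had 383 to 495 CPM with mock, 754.5 to 839 CPM with D1, 607 to 666 CPM with D2 and 713 to 839 CPM with D3, and was higher with D1 (0.32, adjusted p = 0.000946) and with D3 (0.32, adjusted p = 0.000474) than with D2.

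**Figure D5:**
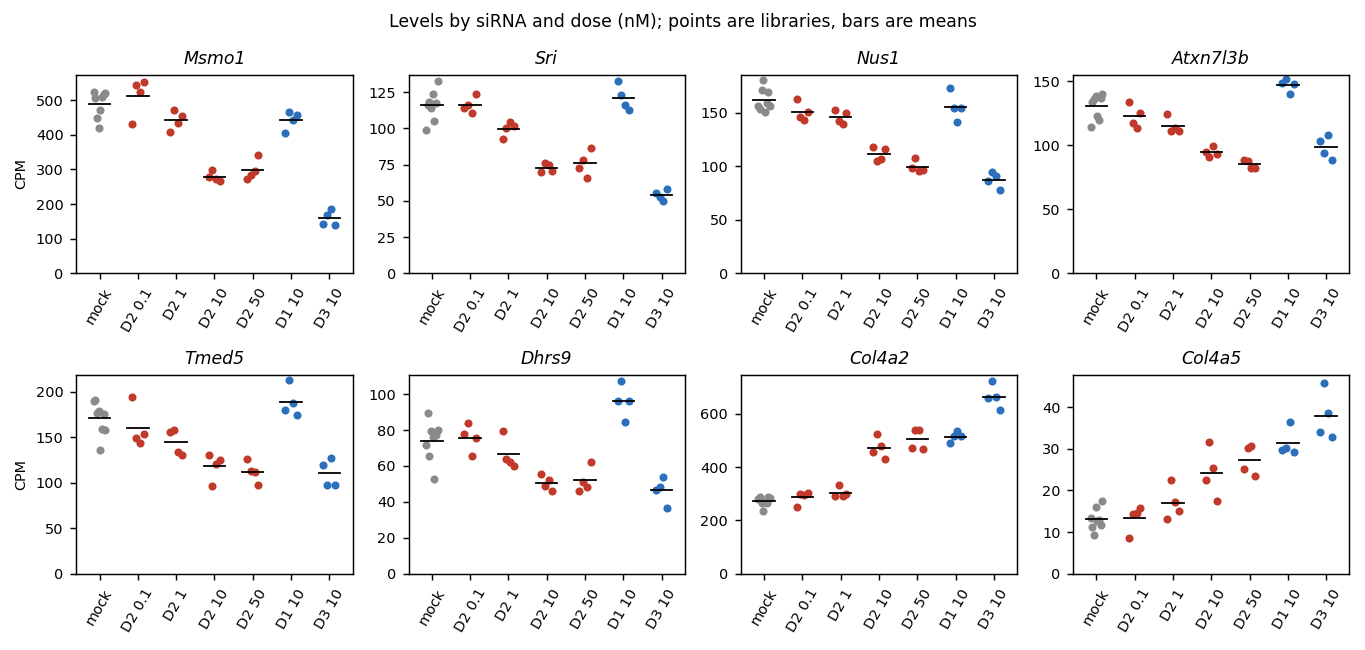
Level in CPM (y axis, from 0) of 8 genes in each library of mock (grey), D2 at 0.1, 1, 10 and 50 nM (red) and D1 and D3 at 10 nM (blue), with bars at the group means. Msmo1, Sri, Nus1, Atxn7l3b, Tmed5 and Dhrs9 are low with D2 at 10 and 50 nM and with D3 but not with D1, and Col4a2 and Col4a5 are high with all 3 siRNAs at 10 nM.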

How the data were processed

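The authors trimmed reads with fastq-mcf, aligned them to GRCm39 with STAR (version not given) and deposited counts of uniquely mapped reads per gene from featureCounts 2.0.2, without normalization, for 2 runs per library. The strand setting of the counting is not given in the sources used here, so genes that overlap another gene, Col4a1 and Col4a2 included, may share reads. Gene symbols were taken from the symbol column, another column, of deposited DESeq2 1.32.0 tables, whose fold changes and p-values were not used. Both runs of a library were added up, with a chi-square over its degrees of freedom of 1.00 to 1.05 between runs and 1.67 to 5.86 between replicates, and 92 ERCC spike-ins (0.453% to 0.790% of counts) were left out. Of 55416 genes, 3076 had no symbol. Each comparison was fitted on its own groups with edgeR 4.0.16 in R 4.3.3 (TMM, filterByExpr, glmQLFit robust, glmQLFTest, two-sided), and called genes had a Benjamini-Hochberg adjusted p under 0.05. CPM use TMM-adjusted library sizes. Other settings tried were no filter, RLE scaling, each run alone, all libraries of the series in one fit, a replicate block, each library left out, and DESeq2 1.42.0 (betaPrior). On simulated counts for D2 10 nM against mock, in which 200 of 11297 genes changed, the shares recovered were 88%, 60%, 76% and 100% at true log2 changes of −1, −0.5, 0.5 and 1, with 6 false calls. Genes named are Hao1, Ttr and Gapdh, the 12 largest decreases and increases among called genes with a mean of at least 5 CPM and libraries that do not overlap, called genes with a seed match, and called list members. Others were chosen after their values were seen, and a few genes that the rule names are not reported here. The gene lists and members were chosen with earlier results of these data known. 3′UTRs came from GENCODE on GRCm39 (10680 of 11297 tested genes had one), and microRNA sequences from RefSeq.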

Additional observations from a re-analysis of the deposited data

Results flagged for a closer look

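Among 226 tests for a library far from the rest of its group (4 D2 or 8 mock libraries, each named gene), 12 stood apart by Dixon's criterion, and chance flags about 1 in 20 such groups. In mock library 8, Pclaf (11.34 CPM, against 6.145 to 8.217 in the other 7), Tubb6 (335.4 CPM, against 264.0 to 295.4) and Mcm7 (70.55 CPM, against 50.96 to 58.24) were high and Pan2 (25.57 CPM, against 35.32 to 43.9) was low. Without mock library 8, the adjusted p of D2 10 nM against mock (edgeR) was 0.0562 for Pclaf and 0.0842 for Mcm7, so that both lost their call, and 0.0464 for Pan2. Col4a2 was low in mock library 4 (236.1 CPM, against 264.4 to 287.4), Btg2 low in mock library 3 (83.01 CPM, against 100.3 to 115.3) and Apoh high in mock library 5 (368.1 CPM, against 318.1 to 339.4). Among the D2 libraries, Igfbp7 (13.92 CPM, against 11.7 to 11.82) and Gsta2 (32.88 CPM, against 24.03 to 25.17) were high in library 2, Cyp2d10 (35.16 CPM, against 33.68 to 33.87) and Ormdl2 (36.55 CPM, against 33.89 to 34.27) were high in library 3, and Jup was low in library 3 (133.0 CPM, against 156.9 to 160.3).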

How the results depend on the processing

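The log2 fold change of Hao1 ranged from −4.764 to −4.352 with a library left out, and no named gene changed direction under any alternative run. For D2 10 nM against mock, each run alone called 166 and 158 genes, and with a library left out 106 to 267 were called (156, 132 and 106 without D2 library 1, 2 or 3). Of the 108 named genes that were called, 46 remained called whichever library was left out. For D3 against D2, run 2 alone called 277 genes, and with a library left out 252 to 542 were called (252, 262 and 264 without D2 library 1, 3 or 4, and 298 without D3 library 2). For D1 against D2 the range was 793 to 1204. For D2 10 nM against 0.1 nM, 205 genes were called without a filter, 75 with all libraries of the series in one fit and 80 in run 2 alone, and with a library left out 54 to 249 (71 and 54 without 10 nM library 1 or 3, and 249 and 65 without 0.1 nM library 1 or 4). For D2 50 nM against 0.1 nM, 320 were called without a filter, and with a library left out 103 to 204 (130 and 103 without 50 nM library 2 or 3, and 123 without 0.1 nM library 4). In canonical 3′UTRs, a search chosen after seeing the data, 3 lower genes had a seed match, against 5 in the longest. Fewer libraries or fewer reads were used in each setting that left some out, and the cause was otherwise not tested.

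Replicate numbers are shared between groups and no label says what they mark. The deviations of libraries with the same number from their group means correlated at −0.026 to 0.069 for D2 10 nM and mock, 0.003 to 0.126 for D1 and D2, −0.086 to 0.096 for D3 and D2, −0.014 to 0.103 for D2 10 and 0.1 nM and −0.008 to 0.209 for D2 50 and 0.1 nM. Libraries with different numbers correlated at −0.198 to 0.132 for D2 10 nM and mock and at −0.145 to 0.132 for D2 50 and 0.1 nM. In no comparison did every same-number pair exceed 0.1, a limit set by choice. The numbers were not taken as pairing the libraries, and whether they mark pairs is not settled. With the replicate number as a block, more genes were called in each comparison. The numbers were 361 (255 without a block) for D2 10 nM against the mock libraries that share its 4 numbers and 215 (133) for D2 10 nM against 0.1 nM. They were 543 (205) for D2 50 nM against 0.1 nM, 1386 (1184) for D1 and 547 (450) for D3 against D2. Hao1 in D1 and D3 against D2 did not pass the filter and has no value in those fits or their alternatives other than those given above. The median standard error of the log2 fold change over all genes tested was 0.097 for D2 10 nM against mock.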

Other observations

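Matches to the seeds of 12 microRNAs were counted in the same 3′UTRs, and that of miR-29a-3p, singled out after the values were seen, was more frequent in the higher genes than in the genes tested. The mature sequence from RefSeq is shown with its seed, bases 2 to 8, in capitals.
miR-29a-3p: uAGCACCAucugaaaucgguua
TGGTGCT, the sense-strand complement of this seed, stood in 2272 of 10679 tested genes (21.28%), in 38 of 126 called higher (30.16%) and in 18 of 121 called lower (14.88%). In canonical 3′UTRs the shares were 17.06%, 25.40% and 12.40%, in coding sequence of canonical transcripts they were 20.86%, 30.95% and 11.57%, and in D2 50 nM against 0.1 nM 29.79% of the genes called higher and 12.50% of those called lower had the match. The higher genes with it include Col4a2, with 2 sites, Col4a1, Ifi30, Btg2, Lpl, which encodes lipoprotein lipase, and Zfp568, with 4 sites. No level of the microRNA was measured in these libraries, and no test was made on these shares.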
